A study of Homo sapiens with 9 samples.

Results

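Flagellin, the protein subunit of the bacterial flagellum, was added to HT-29 cells and their RNA was compared with that of non-stimulated HT-29 cells. HT-29 is an established human colorectal adenocarcinoma line with an epithelial phenotype, and all cells carried the wildtype genotype. Of the 9 libraries of the series, 6 enter this comparison, 3 after 500 ng/mL of ultrapure flagellin for 2.5 h and 3 without stimulus, and the remaining 3 libraries, from cells given 500 ng/mL ADP-heptose for the same time, serve only for a direct contrast of the stimuli. ADP-heptose is a bacterial sugar nucleotide of lipopolysaccharide synthesis that is sensed in the cytosol by the kinase ALPK1. Poly(A)-enriched RNA was sequenced, and the deposited values are raw read counts for 62710 gene identifiers, of which 16775 held enough counts in these 6 libraries to be tested.

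Flagellin is recognised by Toll-like receptor 5 (TLR5) at the cell surface. The receptor recruits the adaptor MYD88 and IRAK kinases, the ubiquitin ligase TRAF6 activates the kinase TAK1, and the IkB kinase complex then marks IkB proteins for degradation, which releases NF-kB dimers (RELA, RELB, REL, NFKB1, NFKB2) to bind kappaB sites in promoters. In colon epithelium this route is known for the secretion of chemokines that draw neutrophils and dendritic cells, and for transcribing its own inhibitors, among them IkB alpha (NFKBIA) and A20 (TNFAIP3).

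The cells carried the transcripts of a colon epithelial line. Of 12 markers of colon epithelium, 11 passed the filter on low counts, their summed level was 9154 to 9544 CPM (counts scaled to a common library total) in the flagellin libraries and 8955 to 9403 in the non-stimulated ones, and CDX1 was at 0 in all 6 libraries. None of 12 leukocyte markers passed the filter (at most 10 reads in any library, 4 of them at 0 throughout). Of 8 fibroblast markers only COL1A1 passed, with summed levels of 12.8 to 16.4 and 12.9 to 15.1 CPM, and of 7 endothelial markers only CLDN5, at 0.290 to 0.651 and 0.332 to 0.633. The flagellin libraries held 30770448 to 38304035 counts and the non-stimulated ones 35040844 to 37537705, with 7.88% to 8.31% of the counts from mitochondrial genes. Over 11040 genes, the SD of the log2 difference between replicates was 0.137 to 0.152 among flagellin libraries and 0.131 to 0.165 among non-stimulated ones. The smallest two-sided p that exact permutation of 3 libraries against 3 allows is 0.1, so the p-values given here are from edgeR's quasi-likelihood test fitted across all genes, with Benjamini-Hochberg adjustment. The labels do not say that replicates came from separate cultures, although the study describes its experiments as independent, so the p-values measure the spread between these libraries. RNA was taken from bulk cultures, in which fewer responding cells and less RNA per cell cannot be told apart.

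Flagellin changed few genes, and nearly all of them upwards. With both an adjusted p under 0.05 and a 2-fold or larger change required, 43 genes were higher (0.256% of those tested) and 2 were lower (0.0119%). The 43 genes include the chemokines CCL20, CXCL1, CXCL2, CXCL3 and CXCL8, the cytokines TNF, LTB, CSF1 and IL17C and the adhesion molecules VCAM1 and ICAM1. Their median log2 fold change was 2.34, against −0.00066 over all genes tested, 27 of them rose at least 4-fold and 16 at least 8-fold. In all 43 the 3 flagellin libraries lay above the 3 non-stimulated ones, a separation that 7.08% of all tested genes showed in this direction and 5.6% in the other. The calls come from these same libraries, so the separation adds no support to them. By the adjusted p alone 143 genes differed (0.852%), 140 upwards (0.835%) and 3 downwards (0.0179%), so 97 further genes rose by less than 2-fold, and 1232 genes had an unadjusted p under 0.05. Of the 43 genes, 40 code for proteins, and 21 had a mean of less than 1 CPM before stimulation.

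**Figure D1:**
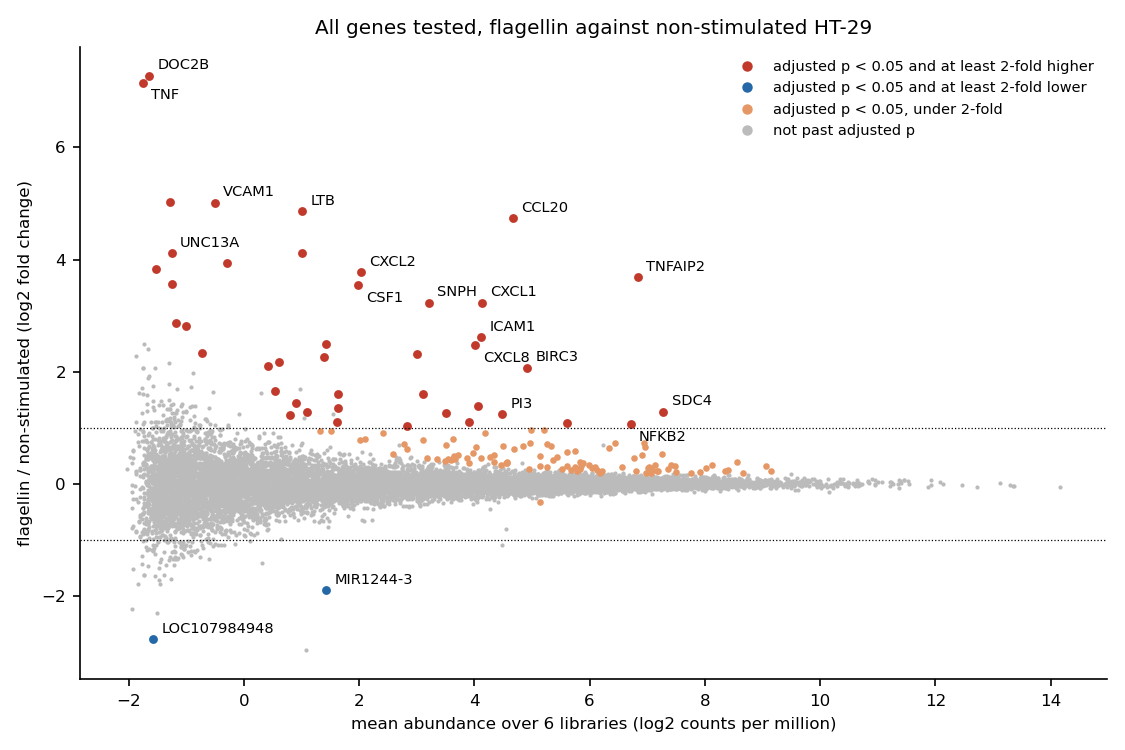
Log2 fold change (flagellin over non-stimulated, vertical axis) against mean abundance in log2 CPM (horizontal axis) for the 16775 genes tested, with the 43 genes at least 2-fold higher in red, the 2 at least 2-fold lower in blue and the genes past the adjusted p under 2-fold in orange. Dotted lines mark 2-fold, and the labelled rises run from TNF and DOC2B at very low counts to SDC4 and NFKB2 at high ones.

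The response was small in mass. The 43 genes together took 0.0292% to 0.0303% of the counts in the non-stimulated libraries and 0.102% to 0.106% in the flagellin libraries. Per kilobase of exon, the highest levels after flagellin were those of SDC4 (34.5 CPM per kilobase without stimulus, 84.5 with flagellin), PI3 (22.9 and 54.5), TNFAIP2 (3.28 and 42.4), NFKB2 (15.1 and 31.7), CCL20 (1.16 and 30.8) and CXCL1 (2.62 and 24.6). SDC4, PI3 and NFKB2 were thus already abundant, while CCL20, TNFAIP2 and CXCL1 went from low to high levels.

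Since NF-kB acts through short DNA sites next to the genes it controls, the 250 bases before the annotated start of each gene were searched on both strands for kappaB motifs, with sequences from RefSeq (GRCh38.p14). The motifs were GGGNNTTTCC, GGAATTTCC and the degenerate 10-base kappaB consensus, which overlap one another. Of the 43 genes, 32 matched a promoter entry, and 15 of these (46.9%) held at least 1 of the motifs, against 5.99% of 27305 promoters in the table. GGGNNTTTCC was present in 28.1% of the 32 and in 1.73% of all promoters, and GGAATTTCC in 15.6% and 0.428%. The close paralogs CXCL1, CXCL2 and CXCL3 hold the same site and are each counted in both shares of the 32. The 27305 promoters were not limited to the genes tested. The AP-1 motif TGANTCA was in 3.12% of the 32, in CXCL8 alone, and in 6.6% of all. Of the genes that rose by less than 2-fold, 71 matched, and 26.8% held a kappaB motif and 15.5% the AP-1 motif. A match of letters is not a measured binding site.

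The 150 bases directly before the RefSeq start are shown for 7 of the 12 genes with full values, whose rises are described below. These 7 were shown because a kappaB match lay within those 150 bases, so they do not show how common such matches are. Among the others of the 12, ANKRD33B and ICAM1 matched only further upstream, beginning 241 and 186 bases before the start. TNFAIP2 and SNPH had no match in the bases searched, and CSF1 had no promoter entry. Capitals mark kappaB motif matches.
CXCL1: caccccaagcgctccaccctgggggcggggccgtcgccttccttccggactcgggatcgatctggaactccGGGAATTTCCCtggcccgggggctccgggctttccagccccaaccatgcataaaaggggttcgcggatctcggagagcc
CXCL2: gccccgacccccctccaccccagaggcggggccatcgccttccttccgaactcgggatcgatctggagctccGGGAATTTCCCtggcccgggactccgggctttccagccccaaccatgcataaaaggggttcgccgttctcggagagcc
CXCL3: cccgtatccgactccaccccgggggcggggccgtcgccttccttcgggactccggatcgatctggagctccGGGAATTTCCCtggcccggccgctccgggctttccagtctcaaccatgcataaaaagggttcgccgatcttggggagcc
CXCL8: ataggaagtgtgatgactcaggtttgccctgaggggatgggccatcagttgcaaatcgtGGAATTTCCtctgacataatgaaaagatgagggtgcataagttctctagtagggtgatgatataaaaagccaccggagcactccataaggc
CCL20: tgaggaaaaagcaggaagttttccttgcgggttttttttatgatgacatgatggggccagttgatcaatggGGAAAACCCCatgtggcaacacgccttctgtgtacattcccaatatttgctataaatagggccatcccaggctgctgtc
LTB: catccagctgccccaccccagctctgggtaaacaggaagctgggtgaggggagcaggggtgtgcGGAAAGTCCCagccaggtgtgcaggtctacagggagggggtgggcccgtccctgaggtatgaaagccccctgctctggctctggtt
MIR3142HG: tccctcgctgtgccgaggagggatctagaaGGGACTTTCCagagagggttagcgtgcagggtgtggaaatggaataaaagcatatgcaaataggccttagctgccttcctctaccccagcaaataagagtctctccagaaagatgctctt

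The sequences lie at chr4:73869243-73869392 (plus strand, CXCL1), chr4:74099196-74099345 (minus, CXCL2), chr4:74038690-74038839 (minus, CXCL3), chr4:73740419-73740568 (plus, CXCL8), chr2:227813692-227813841 (plus, CCL20), chr6:31582426-31582575 (minus, LTB) and chr5:160468101-160468250 (plus, MIR3142HG). The neighbouring chemokine genes CXCL1, CXCL2 and CXCL3 hold the same site, GGGAATTTCCC, beginning 79, 78 and 79 bases before the start. In CXCL8 the match GGAATTTCC begins 91 bases before the start, in CCL20 79, in LTB 86 and in MIR3142HG 120. VCAM1 has one at 62 bases, SDC4 at 97, IL32 at 99 and ICAM1 at 186, and TNFAIP3 has 1 at 67 and 1 at 55 bases. For 28 of the 32 the RefSeq start lay within 300 bases of the GENCODE 29 gene start, from which the gene positions given here are taken. It lay inside the GENCODE gene by 8103 bases in CCL20, 29657 in MIR3142HG, 16783 in NPHS1 and 1433 in PLAU, so the stretches shown for CCL20 and MIR3142HG lie within the gene positions given for them. No match was found in this window for 17 of the 32, among them TNF, TNFAIP2, NFKB2, PTGS2, SNPH and UNC13A.

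Of the genes that relay the flagellin signal, 1 passed the test. The sensor TLR5 had 14, 4 and 0 reads in the flagellin libraries and 8, 0 and 8 in the non-stimulated ones, too few to be tested. Of the other 18 members of the TLR5 chain 17 were tested, and only IRAK2, the kinase that sustains signalling from MYD88, passed (log2 fold change 0.33, adjusted p 0.000671). MYD88 (0.05), IRAK1 (0.10), IRAK4 (0.07), TRAF6 (−0.11), MAP3K7, which encodes TAK1 (−0.10), and the IkB kinase genes IKBKB (0.04), CHUK (−0.12) and IKBKG (0.35) did not pass, and the median of the list was 0.045. Without flagellin replicate 1, 2 members of the chain passed.

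The chemokines that attract neutrophils through CXCR1 and CXCR2 rose together. All 4 members with enough counts to be tested were higher: CXCL1, CXCL2, CXCL3 and CXCL8, which lie in one cluster on chromosome 4 between 73740506 (start of CXCL8) and 74099293 (end of CXCL2; GENCODE 29, GRCh38). CXCL1 had 1042, 1171 and 1157 normalised counts in the flagellin libraries and 125.4, 117.4 and 114.9 in the non-stimulated ones. Its log2 fold change was 3.23 (SE 0.10, adjusted p 1.2e-22). CXCL8, the chemokine whose secretion is the usual readout of epithelial activation, had 984.9, 970.6 and 942.1 against 171.8, 127.5 and 218.2. CXCL8 rose by 2.48 on the log2 scale (SE 0.12, adjusted p 1.63e-17). CXCL2 had 269.2, 251.9 and 283.9 normalised counts with flagellin and 14.9, 32.4 and 11.7 without. Its log2 fold change was 3.78 (SE 0.23, 95% interval 3.30 to 4.25, adjusted p 3.62e-14), and whether it differed from that of its neighbours was not tested. CXCL3 had 495.7, 452.4 and 471.6 against 71.5, 130.6 and 83.8, a log2 fold change of 2.32 (SE 0.15, adjusted p 1.49e-13). CXCL1, CXCL2 and CXCL3 are close paralogs, and how reads that map to several places were counted is not given in the sources used here, so the division of reads among them is uncertain. CXCL5 had 6, 8 and 5 reads with flagellin and 0 in each non-stimulated library, and CXCL6 had 4 reads in 1 flagellin library, both too few to be tested.

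CCL20, the ligand of CCR6 that draws dendritic cells and memory lymphocytes to mucosal epithelium, rose from a low to a high level. It had 1799.9, 1751 and 1627 normalised counts after flagellin and 59.4, 66.8 and 68.2 without (chromosome 2, 227805739 to 227817564). The log2 fold change was 4.74 (SE 0.10, adjusted p 6.73e-28), about 26.6-fold. CX3CL1, the membrane-bound chemokine fractalkine, rose from 327.5 ± 18.7 to 856.4 ± 47.0 (SD, n = 3 each), a log2 fold change of 1.39 (SE 0.09, adjusted p 1.94e-13). CCL22, a ligand of CCR4 next to CX3CL1 on chromosome 16, had 21, 43 and 32 reads against 4, 8 and 8 (log2 fold change 2.34, adjusted p 0.0055). The call of CCL22 was lost without flagellin replicate 2 (2.07, adjusted p 0.14), flagellin replicate 3 (2.27, 0.0575) or non-stimulated replicate 1 (2.05, 0.0846). CCL24 (0.30), CXCL16 (0.29), CCL28 (−0.03) and CCL15 (−0.30) did not pass, and 7 of the 14 chemokines of this second list had too few counts.

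**Figure D2:**
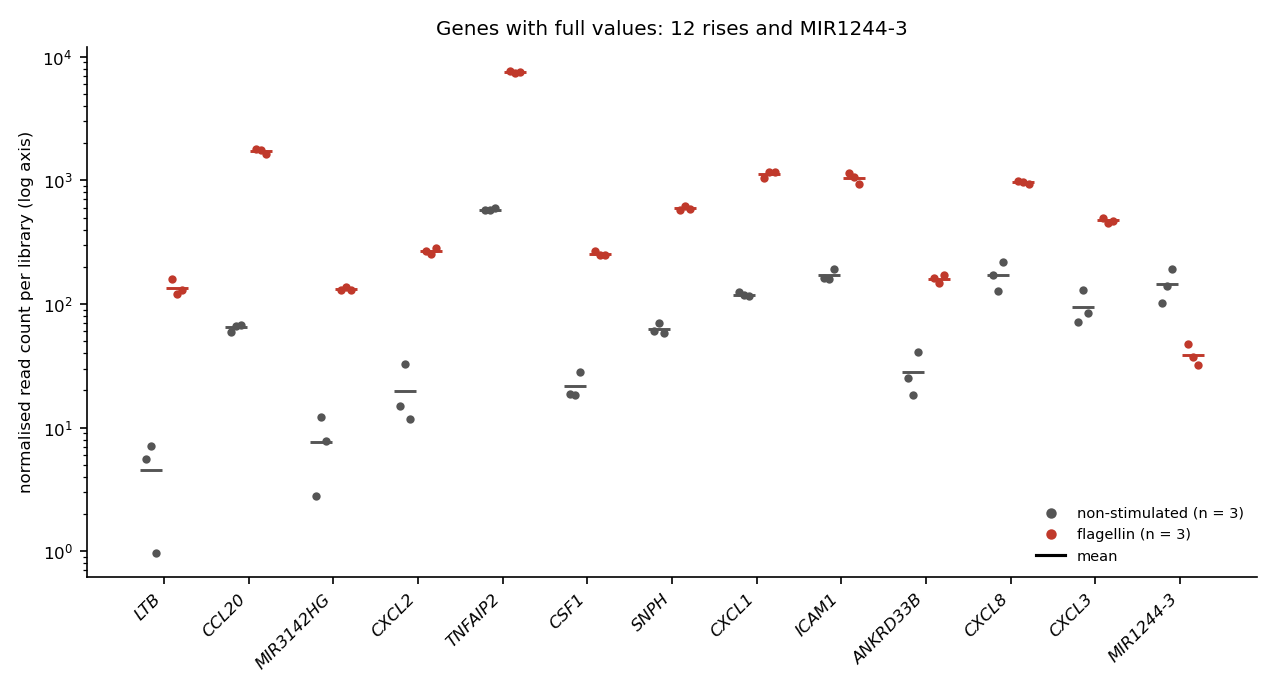
Normalised read count of each library (vertical log axis) for the 12 genes with the largest rises at log2 CPM of 1 or more and for MIR1244-3, non-stimulated in grey and flagellin in red, 3 libraries each, with bars at the means. Genes were shown only if the groups did not overlap, so the gap between red and grey points was set by this choice. The rises run from LTB (4.54 against 135.8 on average) to CXCL3 (95.3 against 473.2), and only MIR1244-3 lies lower with flagellin.

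Among the ligands of the TNF superfamily, the adjacent chromosome 6 genes TNF and LTB rose and 5 other tested members did not pass. LTB encodes lymphotoxin beta, the membrane anchor of the lymphotoxin heterotrimer. It had 158.7, 119.3 and 129.4 normalised counts with flagellin and 5.57, 7.08 and 0.974 without, a log2 fold change of 4.87 (SE 0.35, adjusted p 2.65e-12). TNF, the inflammatory cytokine itself, had 16, 16 and 19 reads in the flagellin libraries and 0 in each non-stimulated library. Against a floor of 3 reads per library that is at least 6.07-fold higher (adjusted p 0.000147). TNF thus passed at very few reads, and only this bound is given for the size of its change. TNFSF9 (0.51), TNFSF10 (0.33), TNFSF15 (0.09), TNFSF13 (0.06) and TNFSF13B (−0.88) did not pass. TNFSF18 had 16, 13 and 5 reads against 0, 0 and 0 but was removed by the filter on low counts.

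Interleukins and colony-stimulating factors gave 4 rises among 13 tested members. CSF1, the growth factor of macrophages, had 267.3, 250.9 and 247.3 normalised counts against 18.6, 18.2 and 28.2 (log2 fold change 3.55, SE 0.21, adjusted p 8.8e-15). IL17C, an epithelial cytokine that acts back on epithelium, had 44, 55 and 51 reads with flagellin and 2, 8 and 0 without. Its log2 fold change was 3.94 (SE 0.54, adjusted p 6.44e-06) and moved to 5.59 without non-stimulated replicate 2, the library with 8 of the 10 reads. IL32 had 68, 113 and 71 reads against 29, 24 and 6 (2.18, adjusted p 0.000125). LIF passed at a small size (0.32, adjusted p 0.018). CSF2 (1.13), IL23A (0.97), IL1A (0.73), IL11 (0.32) and IL18 (−0.02) did not pass, and IL6 and TSLP had no read in any of the 6 libraries.

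The 2 adhesion molecules that anchor leukocyte integrins on inflamed tissue both rose. ICAM1 (chromosome 19, 10270835 to 10286615), the ligand of LFA-1, had 1148, 1071 and 937.5 normalised counts with flagellin and 163.4, 158.9 and 191.9 without (log2 fold change 2.62, SE 0.10, adjusted p 8.67e-20). VCAM1, the ligand of VLA-4, had 34, 65 and 34 reads against 0, 0 and 4. The ratio of its summed counts, scaled for library size, was 35.2, with a 95% exact binomial interval of 13.4 to 131 that covers counting error only (adjusted p 2.55e-06). All non-stimulated reads of VCAM1 came from replicate 3, without which the fitted log2 fold change moved from 5.01 to 8.51. The carcinoembryonic antigen genes CEACAM5 (0.15), CEACAM6 (−0.10) and CEACAM1 (−0.42) did not pass.

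NF-kB genes and their brakes rose by smaller amounts from higher starting levels. NFKB2 (p100), the precursor subunit of the non-canonical pathway, had 5300.3, 4824 and 4888 normalised counts with flagellin and 2368, 2473 and 2301 without, a log2 fold change of 1.07 (SE 0.05, adjusted p 3.42e-17). RELB, its partner, had 2463, 2311 and 2260 against 1001, 1196 and 1122 (1.08, SE 0.06, adjusted p 1.5e-14). NFKB1 rose by 0.64 (SE 0.05, adjusted p 1.19e-10), from 2219 ± 99.5 to 3457 ± 149 (SD, n = 3 each). REL (0.28) and RELA (0.10), the subunits that carry the transactivation domain of the canonical dimers, did not pass. Of 6 IkB proteins 4 passed, each under 2-fold: NFKBIE (0.81), NFKBIA (0.68, adjusted p 2e-09), the nuclear cofactors BCL3 (0.58) and NFKBIZ (0.26).

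Of the deubiquitinases and ubiquitin-binding proteins that shut the pathway off, TNFAIP3 and TNIP1 passed and the other 9 tested did not. TNFAIP3, encoding A20, had 596.9, 555.2 and 546 normalised counts against 241.4, 214.6 and 251.3 (log2 fold change 1.26, SE 0.11, adjusted p 1.06e-10). TNIP1, encoding the A20-binding protein ABIN1, rose by 0.35 (adjusted p 3.36e-06), while CYLD (0.15), OTULIN (−0.05) and ITCH (−0.01) did not pass. BIRC3, the ubiquitin ligase cIAP2, had 1759, 1661 and 1750.2 normalised counts with flagellin and 438.3, 354.2 and 431.5 without (2.08, SE 0.08, adjusted p 3.38e-20). Of the other members in its list of TRAF, IAP and cFLIP genes, TRAF3 (0.30), CFLAR, which encodes cFLIP (0.23), and BIRC2 (0.21) passed at small sizes. TRAF1, TRAF2, TRAF4, TRAF5 and XIAP did not. The count of 4 in this list fell to 1 without flagellin replicate 1 or non-stimulated replicate 3, and to 2 without flagellin replicate 2 or non-stimulated replicate 1. ZC3H12A, the ribonuclease Regnase-1 that destroys cytokine mRNA, was the only mRNA-decay factor of 7 to pass (0.73, adjusted p 1.95e-09). ZFP36 (tristetraprolin) had a log2 fold change of 0.09.

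**Figure D3:**
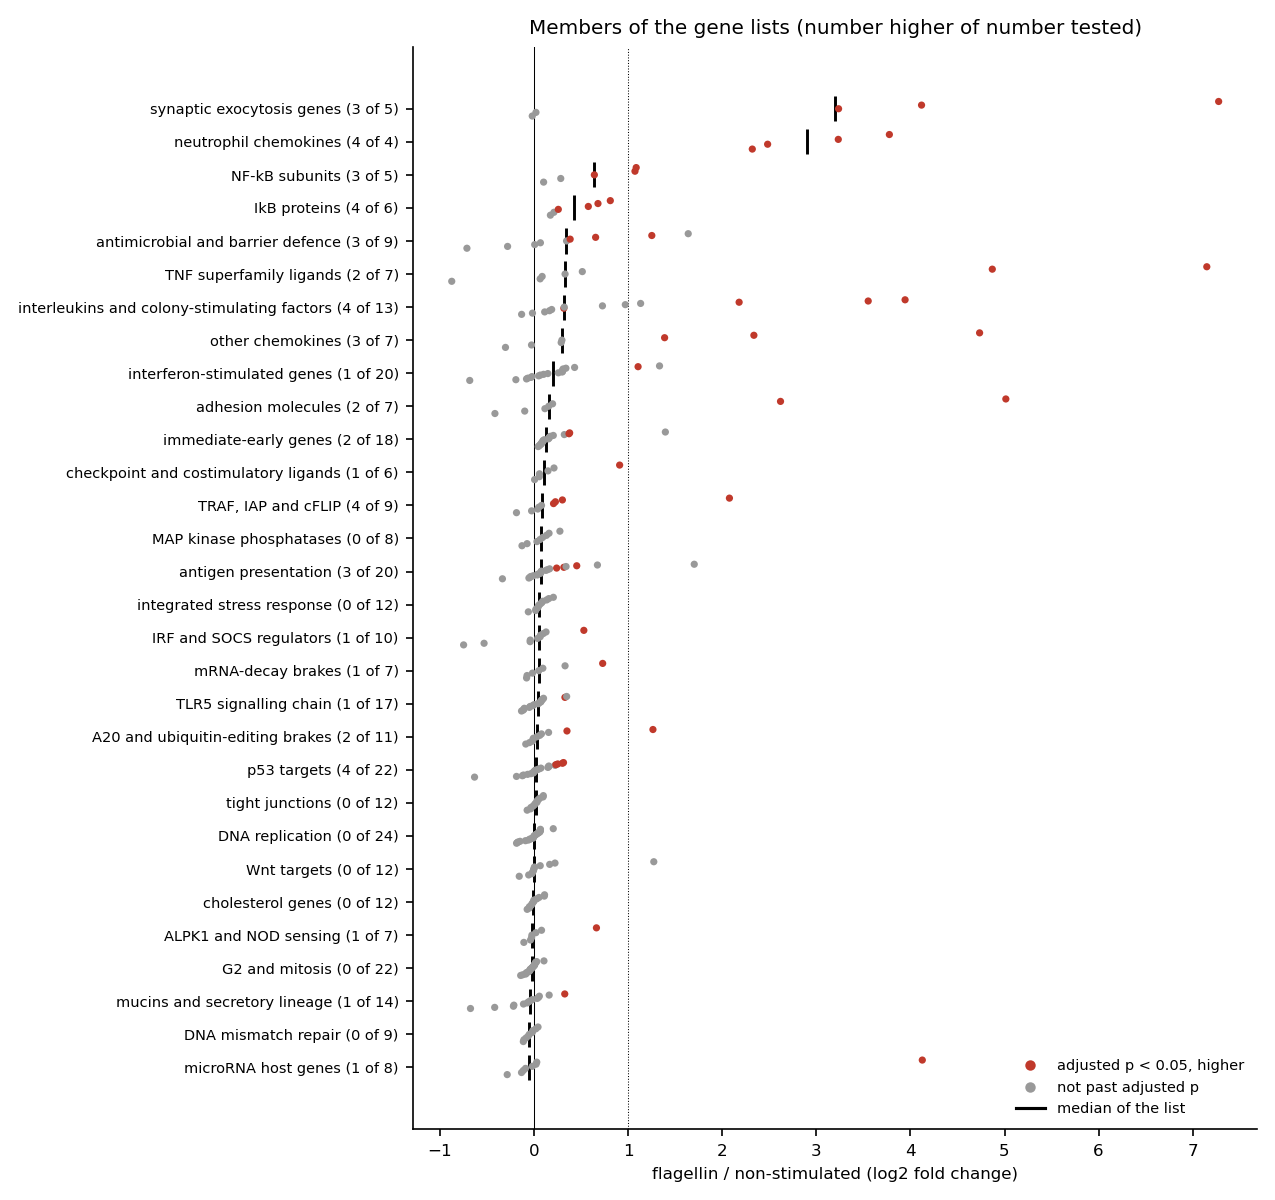
Log2 fold change (horizontal axis) of every tested member of the 30 gene lists, ordered by list median (black bar), with members past the adjusted p in red and the number higher of the number tested beside each list name. Red points gather in the chemokine, cytokine, NF-kB and IkB lists, while mismatch repair, replication, mitosis, cholesterol and tight-junction genes stay near 0.

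TNFAIP2, a TNF-inducible gene of vesicle tethering and membrane protrusions, had the smallest p of all genes tested. It had 7652, 7369 and 7499 normalised counts with flagellin and 570.2, 573.8 and 598 without (chromosome 14, 103123442 to 103137439), a log2 fold change of 3.69 (SE 0.06, adjusted p 1.84e-32). SDC4, the heparan sulfate proteoglycan syndecan-4, rose from 3171 ± 178 to 7768 ± 213 (SD, n = 3 each; 1.29, SE 0.05, adjusted p 3.38e-20). Neither gene belonged to one of the 30 lists, nor did 17 others of the 43. ANKRD33B, an ankyrin repeat gene, had 161.5, 147 and 171.7 normalised counts against 25.1, 18.2 and 40.9 (5.67-fold, adjusted p 2.75e-09). STAT5A, a signal transducer of cytokine receptors, rose by 1.60 (SE 0.13, adjusted p 2.69e-11), CD83, a maturation marker of antigen-presenting cells, by 2.27 (SE 0.24, adjusted p 4.67e-08), and PLAU, the urokinase plasminogen activator, by 1.60 (SE 0.19, adjusted p 4.87e-07). DAPP1, an adaptor of phosphoinositide signalling, rose by 1.03 (adjusted p 6.14e-06).

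PTGS2, PTGES and BDKRB2 also belonged to none of the lists. PTGS2, the inducible cyclooxygenase COX-2, had 828, 625.1 and 715.4 normalised counts with flagellin and 336.2, 309.7 and 364.3 without (1.10, SE 0.10, adjusted p 1.64e-09). PTGES, the synthase that makes prostaglandin E2 from the cyclooxygenase product, rose from 60.7 ± 13.04 to 155.4 ± 33.7 (1.35, SE 0.21, adjusted p 6.47e-05). BDKRB2, the bradykinin B2 receptor, had 31, 25 and 16 reads against 6, 4 and 0 (2.87, adjusted p 0.00793), and its call was lost without flagellin replicate 1 (adjusted p 0.154), flagellin replicate 2 (0.0741) or non-stimulated replicate 3 (0.0958). Without non-stimulated replicate 1 its value was 3.53.

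Of the antimicrobial and barrier defence list 9 of 21 members were tested and 3 passed. PI3, the epithelial protease inhibitor elafin, rose from 464.8 ± 34.5 to 1105 ± 46.8 normalised counts (1.25, SE 0.08, adjusted p 1.68e-13). SOD2, the mitochondrial superoxide dismutase, rose by 0.65 (SE 0.05, adjusted p 2.82e-12) and LCN2, the iron-sequestering lipocalin, by 0.38 (adjusted p 6.88e-05). PIGR had a log2 fold change of 1.64 that did not pass, and DEFB4A, encoding beta-defensin 2, had no read in any library. S100A8, SAA1, SAA2, NOS2 and C3 had at most 8 reads in a library. VNN1, the pantetheinase vanin-1, rose by 1.44 (adjusted p 0.000824), a call lost without flagellin replicate 2 (adjusted p 0.0516).

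Genes known from neurons and secretory cells stood among the largest rises. SNPH encodes syntaphilin, a protein that docks mitochondria on microtubules and binds the SNARE protein syntaxin-1. It had 571.8, 620 and 586.1 normalised counts with flagellin and 60.4, 69.8 and 58.4 without (chromosome 20, 1266280 to 1309328), a log2 fold change of 3.24 (SE 0.13, adjusted p 1.66e-19). UNC13A, a vesicle priming factor, had 34, 27 and 12 reads against 0, 2 and 2 (ratio 19.3, 95% exact binomial interval 7.22 to 72.7, adjusted p 0.000375). DOC2B, a calcium sensor of vesicle release, had 21, 16 and 19 reads against 0, 0 and 0, at least 6.6-fold higher by the floor of 3 reads (adjusted p 7.04e-05). STX11, a syntaxin of lymphocyte granule release that was not in the list, had 28, 11 and 32 reads against 0, 4 and 2 (3.57, adjusted p 0.0023), and its value was 3.19 (adjusted p 0.0829) without flagellin replicate 3, 2.98 without non-stimulated replicate 1 and 4.51 without replicate 2. The list held 7 members, of which STX1A (−0.02) was among those tested without passing, and SYT1 and SNAP25 had at most 4 reads in a library.

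Several of the remaining genes rested on few reads. ENSG00000289866, an identifier without a symbol in the table, had 22, 31 and 20 reads with flagellin and 0, 2 and 0 without (ratio 38.6, 95% interval 10.3 to 325, adjusted p 8.19e-05), and its fitted log2 fold change of 5.02 became 7.66 without non-stimulated replicate 2. NPHS1, the podocyte protein nephrin, had 24, 12 and 22 reads against 4, 0 and 0 (3.83, adjusted p 0.00353). Its call was lost without flagellin replicate 1 (adjusted p 0.0734), flagellin replicate 3 (0.0639) or non-stimulated replicate 3 (0.0575), and its value was 7.30 without non-stimulated replicate 1. BATF3, a transcription factor of dendritic cells, had 25, 31 and 26 reads against 0, 10 and 2 (2.81, adjusted p 0.0107). Leaving out any 1 of the libraries except non-stimulated replicate 2 raised its adjusted p above 0.05, to between 0.0677 and 0.126, and without that replicate the value was 4.72 (0.000217). GPR37L1, an orphan receptor, rose by 2.11 (adjusted p 0.00154; 3.16 without non-stimulated replicate 3) and RARRES1, a retinoid-responsive gene, by 1.28 (adjusted p 0.00189). FAM157C, a noncoding transcript, rose by 1.66 (adjusted p 0.00281; 1.21 and 0.213 without flagellin replicate 2), and TNNT2, cardiac troponin T, by 1.23 (adjusted p 0.0263; 0.0932 to 0.404 without flagellin replicate 2 or 3 or non-stimulated replicate 1 or 2). NPHS1, GPR37L1, RARRES1 and TNNT2 each overlap a more abundant gene, and whether counting used strand is not given, so shared reads in the first 3, whose partners lie on the opposite strand, cannot be told apart. The gene that TNNT2 overlaps lies on the same strand.

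Low counts in this table were more often even than odd. Over the 9 libraries, 20184 values were equal to 2 and 11981 to 1, and 59.5% to 62.4% of the values from 1 to 12 were even in each library. Counting the mates of a read pair separately would give such an excess, and a count of 2 could then be 1 molecule. Whether this was done is not given in the sources used here and was not tested. With counts halved, the interval of the VCAM1 ratio widened to 9.43 to 299, that of UNC13A to 5.05 to 168 and that of ENSG00000289866 to 6.6 to 1590. The fit with halved counts, added after seeing the data, called 37 of the 43 genes, and 38 in all. The 6 others, DOC2B, TNF, UNC13A, NPHS1, STX11 and BDKRB2, then had too few counts to be tested.

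One microRNA host gene rose strongly. MIR3142HG, the long noncoding RNA whose locus holds the hairpins of miR-3142 and miR-146a (chromosome 5, 160438594 to 160487426), had 130, 136.8 and 130.5 normalised counts with flagellin and 2.79, 12.1 and 7.79 without. Its log2 fold change was 4.13 (SE 0.32, adjusted p 1.76e-11). miR-146a is known as a brake on the same pathway that targets IRAK1 and TRAF6 mRNA. The mature sequences (RefSeq, GRCh38.p14) are shown with the seed, bases 2 to 8, in capitals.
hsa-miR-146a-5p: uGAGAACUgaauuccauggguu
hsa-miR-3142: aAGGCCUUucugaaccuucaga

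The seeds of miR-146a-5p and miR-3142 differ. Neither mature microRNA was measured, because poly(A) RNA libraries do not capture them, and both hairpin genes had 0 reads in all 6 libraries. The 7 other host genes tested had log2 fold changes between −0.29 (MIR17HG) and 0.03 (MIR34AHG) and did not pass, and MIR155HG had 1, 1 and 0 reads against 8, 0 and 0.

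The 97 genes that rose by less than 2-fold had log2 fold changes of 0.19 to 0.96 with a median of 0.40. In all 97 the flagellin libraries lay above the non-stimulated ones, which a call from these same libraries makes likely. The 10 with the smallest p were LAMA3, ABTB2, SOD2, FAM43A, SLFN5, NFKB1, IFNGR1, TRIM31, SGPP2 and ZC3H12A. LAMA3, the alpha chain of the basement membrane laminin-332, had 5462, 5326 and 5497 normalised counts with flagellin and 3315, 3013 and 3503 without (0.73, SE 0.05, adjusted p 1.74e-12). LAMB3, the beta chain of laminin-332, also passed (0.33). FAM43A had 1564, 1435 and 1398 normalised counts against 814.4, 756 and 690.5 (0.96, SE 0.07, adjusted p 1.06e-11). SLFN5, a Schlafen gene, had 1644, 1790 and 1743 against 989, 767.2 and 901.9 (0.96, SE 0.07, adjusted p 1.3e-11). Both chains of the interferon gamma receptor rose, IFNGR1 by 0.54 (SE 0.05, adjusted p 1.72e-10) and IFNGR2 by 0.48 (adjusted p 2.18e-06). ABTB2 rose by 0.73, the ubiquitin ligase TRIM31 by 0.71 and SGPP2, a phosphatase of sphingosine 1-phosphate, by 0.52.

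Of the 97, 27 belonged to one of the lists and 70 to none. Outside the lists and the 10 above, and named after their values were seen, they included the transcription factors ETS1 (0.58), CEBPD (0.67), HIVEP2 (0.91) and PROX1 (0.69), the protease MMP7 (0.40), the growth factor PDGFB (0.38), the receptor EGFR (0.23) and the Notch ligand JAG1 (0.29). IKBKE (0.49), the IkB kinase epsilon, and TIFA (0.66, adjusted p 0.000292), the forkhead-associated adaptor through which ALPK1 signals, were also higher. In the list of ALPK1 and NOD sensing genes TIFA was the only 1 of 7 to pass, and ALPK1 itself had a log2 fold change of −0.04.

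**Figure D4:**
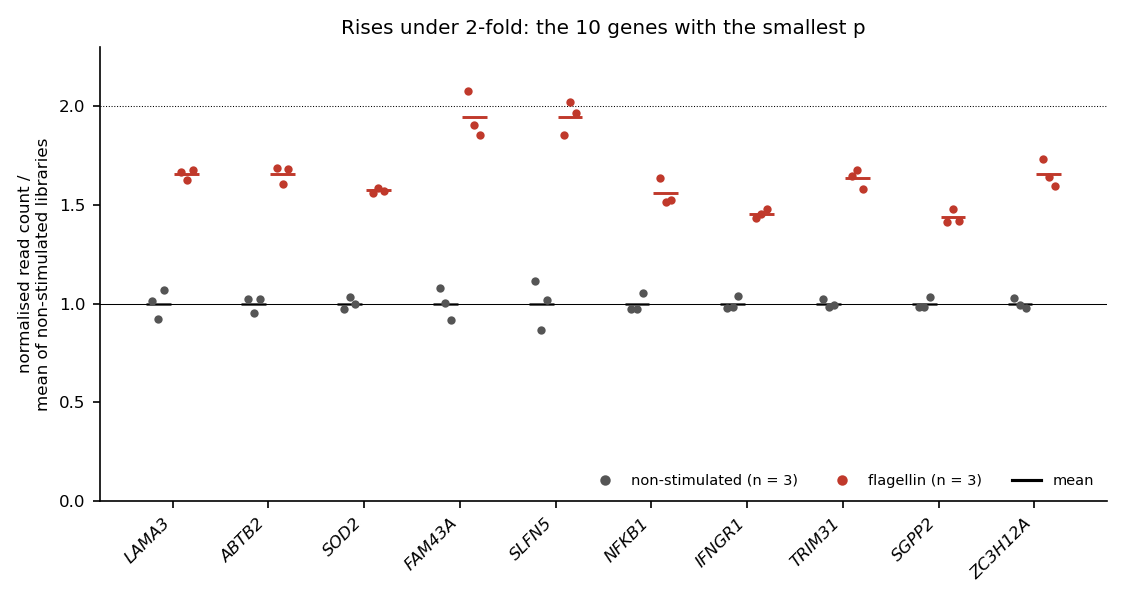
Normalised count divided by the mean of the non-stimulated libraries (vertical axis, from 0) for the 10 genes with the smallest p among those higher by less than 2-fold, non-stimulated in grey and flagellin in red, 3 libraries each, with bars at the means. The red points of all 10 genes lie above the grey ones, between 1-fold and about 2-fold (dotted line), which the choice by p in these same libraries makes likely.

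Other programmes had few or no members past the adjusted p at this time. Of 18 immediate-early genes tested ATF3 (0.38, adjusted p 0.0369) and IER3 (0.37, adjusted p 0.00452) passed, while FOS (0.09), JUN (0.09), EGR1 (0.17) and MYC (0.09) did not. That count was 1 or 0 in each fit without flagellin replicate 1 or 2 or non-stimulated replicate 1 or 3. Values of the 18 ran from 0.04 to 1.39 (median 0.13), with the highest in a member that did not pass. In 10 of them the flagellin libraries lay above all non-stimulated ones and in 0 below. Over all tested genes, 7.08% lay above and 5.6% below. None of 8 MAP kinase phosphatases passed (DUSP1 −0.13, DUSP10 0.27). Of 20 interferon-stimulated genes tested only IFIT2, which binds viral RNA, passed, with 156.9, 153.2 and 125.9 normalised counts against 61.3, 60.7 and 80.8 (log2 fold change 1.10, SE 0.20, adjusted p 0.000573). IFIT2 overlaps LIPA on the opposite strand. Its companions IFIT1 (0.31) and IFIT3 (0.34) did not pass, nor did ISG15 (−0.02) and MX1 (−0.08). The median of the list was 0.20 (range −0.68 to 1.33), with the highest value in a member that did not pass. Without non-stimulated replicate 2, 2 members passed. IRF1 rose by 0.53 (adjusted p 0.000108), alone among 10 regulators of the IRF and SOCS families.

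Antigen presentation and immune ligand genes changed in a few members. Of 20 antigen presentation genes TAP1 (0.45, adjusted p 0.0341), TAPBP (0.32, adjusted p 0.000573) and HLA-E (0.24, adjusted p 0.004) passed, and HLA-B (0.34), HLA-C (0.07) and B2M (0.03) did not. Values in this list ran from −0.34 to 1.7, and the member with the highest value did not pass. ICOSLG, the ligand of the T cell costimulator ICOS, rose by 0.91 (adjusted p 0.000396), the only 1 of 6 checkpoint and costimulatory ligands that could be tested. CD274, which encodes PD-L1, had 18, 9 and 2 reads with flagellin and 6, 10 and 2 without, so the groups overlapped and the gene was too low to be tested.

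The mismatch repair genes were measured because this series asks how bacterial products bear on them. None of the 9 passed: MSH6 had a log2 fold change of −0.09 (95% interval −0.19 to 0.02) and PMS2 of −0.11 (−0.25 to 0.04). The median of the 9 was −0.051. None of 24 replication genes (−0.19 to 0.20) and none of 22 genes of G2 and mitosis (−0.14 to 0.10) passed. Of 22 p53 targets the cell cycle inhibitor CDKN1A (0.31, adjusted p 0.00344), BBC3 (0.30), PLK2 (0.25) and TNFRSF10B (0.23) passed, with MDM2 at −0.11 and a list median of 0.025, and 2 of them passed without flagellin replicate 1. No member passed among 12 Wnt targets (AXIN2 −0.01, LGR5 −0.01), 12 cholesterol genes, 12 genes of the integrated stress response (DDIT3 0.07) and 12 tight junction genes (CLDN1 0.10, OCLN −0.07). Values of the Wnt targets ran from −0.16 to 1.27. MUC5AC, a gel-forming mucin, was the only 1 of 14 mucin and secretory genes to pass (0.33, adjusted p 0.0392), and it no longer passed without any 1 of the flagellin libraries; MUC2 had 0.06. Over all 30 lists, 339 of 407 distinct genes were tested, 51 were higher and 0 lower past the adjusted p, in edgeR's test. Of all 16775 genes tested, 0.835% were higher and 0.0179% lower past it. Many of the lists were written around NF-kB and mucosal defence, and all were chosen with earlier results of these data known. The synaptic exocytosis list, for example, holds the called genes SNPH, UNC13A and DOC2B. The share of rises in the lists is therefore not that of a random set.

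The lower genes were few and uncertain. MIR1244-3, a microRNA gene on chromosome 12 (9239467 to 9239551, minus strand), had 51, 36 and 28 reads with flagellin and 109, 139 and 198 without, so that all flagellin libraries lay below. The log2 fold change was −1.89 (SE 0.24, adjusted p 1.69e-06). Its hairpin is identical to those of MIR1244-1, MIR1244-2 and MIR1244-4, and the mature sequence in the table is shown with its seed in capitals.
hsa-miR-1244: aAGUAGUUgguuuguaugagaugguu

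The reads of poly(A) libraries over this short gene are not the mature microRNA, and they cannot be assigned to 1 of the copies. MIR1244-2 had 454, 348 and 376 reads against 477, 465 and 399, MIR1244-1 had 0 in all 6, and MIR1244-1 lies within PTMA, the prothymosin alpha gene, which had 47027 to 57667 reads with flagellin and 53118 to 60425 without. LOC107984948, a noncoding gene on chromosome 1 that overlaps SLC6A9 on the opposite strand, had 3, 4 and 0 reads against 17, 19 and 16 (−2.76, adjusted p 0.0341), and its call was lost in each fit that left out 1 library (adjusted p 0.0927 to 0.29). PRR15L passed the adjusted p at less than 2-fold (−0.32, adjusted p 0.00495). The number lower past the adjusted p rose from 3 to 30 without non-stimulated replicate 2.

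How the response compares with that to the second stimulus was tested directly, in a fit of all 9 libraries in which 17412 genes were tested and 481 were higher (2.76%) and 940 lower (5.4%) with flagellin than with ADP-heptose. Both stimuli were given at the same mass concentration and time, which is not the same number of molecules. Of the 43 genes higher after flagellin, 35 were lower with flagellin than with ADP-heptose, 2 were higher and 6 did not pass. Of the 97 smaller rises, 85 were lower with flagellin and 0 were higher in edgeR's test. ADP-heptose replicate 3 differed from the other libraries of its group by an SD of 0.363 and 0.371 over genes, where those differed by 0.109. Without it the counts over all genes became 923 and 1798, and 36 of the 43 genes were lower and 2 higher. With library totals in place of TMM, 1064 genes were higher and 708 lower with flagellin, so the split over all genes depends on the scaling, while of the 43 genes 34 were lower and 2 higher.

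The gap was widest for CXCL8, with a log2 difference of −5.19 (95% interval −5.49 to −4.89), and TNF (−5.11, −5.50 to −4.71). The flagellin side of TNF rests on 16, 16 and 19 reads, so its interval may be too narrow. CXCL8 had 1076 ± 23.8 normalised counts with flagellin and 39274 ± 1335 with ADP-heptose on the scale of the 9 libraries (SD, n = 3 each). CCL20 differed by −3.27 (−3.43 to −3.11), PLAU by −4.01 (−4.20 to −3.81) and CXCL1 by −3.23 (−3.39 to −3.07). The 2 genes in the other direction were SNPH and IFIT2. SNPH had 660.1 ± 27.1 normalised counts with flagellin and 165.6 ± 26.1 with ADP-heptose, a difference of 1.99 (95% interval 1.71 to 2.27, adjusted p 7.28e-07), and passed in each of the 5 alternatives of this contrast. IFIT2 differed by 0.80 (0.40 to 1.196, adjusted p 0.0163), and without ADP-heptose replicate 1 by 0.68 (adjusted p 0.0665).

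For 6 genes the direct test did not pass, and the intervals limit how far the stimuli can differ. These were ENSG00000289866 (−0.12, −0.99 to 0.75), BATF3 (−0.04, −1.12 to 1.05), FAM157C (0.43, −0.41 to 1.27), RARRES1 (−0.48, −0.96 to −0.00497), NPHS1 (−0.65, −1.67 to 0.37) and DOC2B (−0.98, −1.78 to −0.18). Most of these intervals span more than a 2-fold range, so a missed threshold does not show equal responses. PTGES, which differed by −0.66 (adjusted p 0.0402), lost its call without ADP-heptose replicate 1 (adjusted p 0.0774) or 2 (0.0709), with library totals (−0.54, 0.0772) and with the replicate number as a block (−0.67, 0.0634). RARRES1 passed without ADP-heptose replicate 3 (−0.61, adjusted p 0.0485). MIR1244-3 differed by −1.07 (−1.78 to −0.36, adjusted p 0.0708), and passed without ADP-heptose replicate 2 (−1.28, adjusted p 0.0312) or 3 (−1.17, 0.00511).

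**Figure D5:**
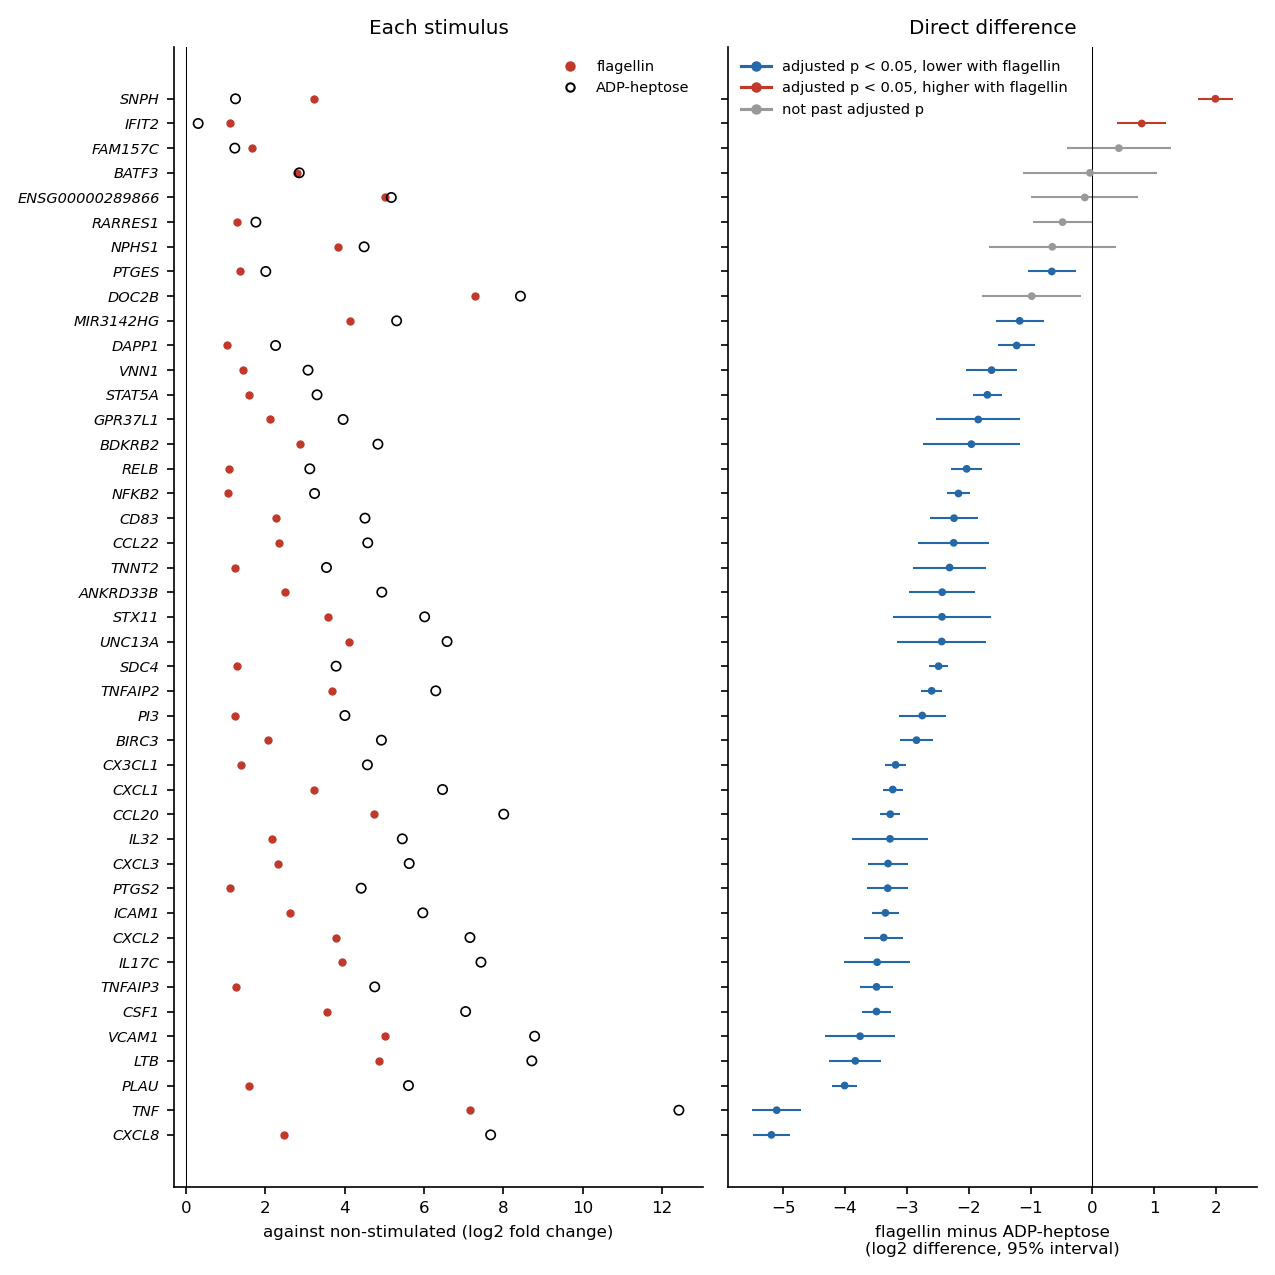
Left, log2 fold change against non-stimulated cells of the 43 genes higher after flagellin, for flagellin (red, fit of 6 libraries) and ADP-heptose (open circles, fit of 9 libraries); both share the same non-stimulated libraries. Right, the direct log2 difference, flagellin minus ADP-heptose, with its 95% interval: 35 genes lie to the left of 0 past the adjusted p (blue), SNPH and IFIT2 to the right (red), and 6 did not pass (grey).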

How the data were processed

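The deposited table holds raw counts per gene, 1 column per library. Per the labels, the authors made them from paired 150-base reads of poly(A) RNA; HISAT2 and featureCounts are named in their processing notes. Versions, genome build, annotation, strandedness and the treatment of reads with several matches are not given in the sources used here. Of 62972 lines, 62710 identifiers were distinct, and 232 repeated ones with identical counts were kept once. No column was left out. Positions and gene types are from GENCODE 29 (GRCh38; 92.9% of identifiers).

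edgeR 4.0.16 (R 4.3.3) was run on the counts of the 6 libraries, with TMM, the default filterByExpr filter and a robust quasi-likelihood F test; SE is the absolute log2 fold change over the square root of F. Normalised counts are counts over the effective (TMM-scaled) library size, times the geometric mean of that size across the 6 libraries. Ratios of low counts carry exact binomial intervals at 95%, for counting error only. The direct contrast of stimuli used all 9 libraries. DESeq2 1.42.0 was an alternative, and 15 alternatives were tried. On simulated data for this comparison (16775 genes, 200 changed), edgeR recovered 78 of 100 changes of 2-fold and 97 of 100 of 4-fold.

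Full values are given for the 12 largest rises and every fall that were called, averaged 1 or more in log2 CPM and showed no overlap of groups; every called gene, the 10 smallest p among smaller changes, and members of the lists are also named. Some list members are not reported here by name. The members and lists were chosen with earlier results of these data known. Figures were drawn with matplotlib 3.10.9.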

Additional observations from a re-analysis of the deposited data

How the results depend on the processing

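The number of genes higher at least 2-fold was 34 to 47 in the 15 alternatives and 38 to 46 when single libraries were left out; 28 of the 43 genes passed the adjusted p in all of them. DOC2B, TNF and UNC13A were removed by the filter in some and passed wherever tested. The number lower was 4 without a filter on low counts, 1 in the test against 1.5-fold, 1 with counts halved and 1 to 4 with a library left out. Past the adjusted p alone, 36 genes were higher and 1 lower in the test against 1.5-fold, 64 were higher with all 9 libraries in the fit, and 9 were lower without the filter; leaving out libraries gave 101 to 155 higher and 1 to 30 lower. Genes higher with flagellin than with ADP-heptose numbered 1064 with library totals and 369 to 923 with an ADP-heptose library left out, and lower ones 708 with library totals and 843 to 1798 with a library left out. The cause of these shifts was not tested, beyond that the test against 1.5-fold asks for a larger change. The sign changed for values near 0: the direct difference of BATF3 was 0.0831 with library totals and −0.103 to 0.0234 with a library left out, and that of ENSG00000289866 −0.215 to 0.0143. Flagellin and non-stimulated libraries of equal replicate number had correlations of deviations of −0.039, −0.047 and 0.069, and those of unequal number −0.089 to 0.1. With 3 libraries per group, this cannot show whether equal numbers share an experiment. A fit with the replicate number as a block gave 43 higher and 3 lower genes, 133 and 4 without the fold threshold. At these depths the genes with fewest reads are limited by counting.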

Other observations

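Among genes that did not pass, 3 symbols with wide differences between libraries are given here as values, chosen after their values were seen. SMIM11 had 17, 12 and 18 reads in the flagellin libraries and 224, 149 and 20 in the non-stimulated ones (log2 fold change −2.96, adjusted p 0.653 in edgeR's quasi-likelihood test), so non-stimulated replicate 3 lay near the flagellin libraries and the groups overlapped in normalised counts. SMN1 is the symbol of 2 gene entries in the table. The entry ENSG00000172062 had 505, 487 and 471 reads with flagellin against 785, 1411 and 1064 without, and the groups did not overlap (log2 fold change −1.08, adjusted p 0.487 in the same edgeR test). The other entry with that symbol, ENSG00000205571, is the identifier of the paralog SMN2. It had 231, 496 and 171 reads against 213, 230 and 234, and its groups overlapped (log2 fold change 0.48, adjusted p 0.92 in edgeR). EIF3C, a subunit of a translation initiation factor, had 742, 471 and 548 reads against 790, 1920 and 469, with overlapping groups (log2 fold change −0.79, adjusted p 0.904 in edgeR). SMN1 and EIF3C belong to near-identical gene pairs whose reads the counting could split, so their values are uncertain.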
